A study of Caenorhabditis elegans with 2 samples.

Results

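The genes described here are the spliced leader RNA genes of the nematode Caenorhabditis elegans, set against the places where the tagged protein TRA-4 was found on chromatin. They were taken by symbol from the Ensembl annotation of the genome build WBcel235 (ce11), as all genes named sls-1 for the SL1 RNA and all genes named sls-2 for the SL2 RNA. This gave 30 genes of 46890 annotated on the nuclear chromosomes, 18 for SL2 and 12 for SL1. The rule used names alone and no measured value, but it was set with earlier results of these data known.

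The study mapped TRA-4, a zinc finger protein with a role in sex determination, by ChIP-seq, which sequences the DNA that comes down with a protein. Per the labels, both biological replicates came from strain OP640, genotype unc-119(tm4063) III; wgIs640, a transgenic line whose TRA-4 is fused at its C-terminus to GFP-FLAG, and the antibody was directed at GFP. Whole early embryos of both sexes and of unknown age were collected by egg bleaching and their chromatin was sonicated, so cell types cannot be told apart. There was 1 group of 2 replicates, each sample carried the transgene, and the labels do not name the promoter that drives it.

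Spliced leader RNAs are short transcripts whose first bases, the leader, are cut off and joined to the front of messenger RNAs in a reaction called trans-splicing. In C. elegans most trans-spliced messages receive the SL1 leader, and SL2 goes mainly to the downstream genes of operons, where several genes are transcribed as a unit. Each leader RNA works as a particle with Sm proteins, which bind a short run of U bases behind the leader. The genes are transcribed by RNA polymerase II from small promoters bound by the SNAPc complex. SNAPc also binds the promoters of other small nuclear RNA (snRNA) genes. The SL1 genes sit in the tandem repeat that also holds the 5S ribosomal RNA.

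Whole genes are printed first because the SL2 genes with the strongest TRA-4 regions share a leader and because near-identical copies limit where reads can be placed. Sequences are from the WBcel235 assembly, 5′ to 3′ on the strand of the gene, with the leader in capitals up to the AG of the first AGGT, where the leader is cut off. The genes sls-2.1 (chrII:5844865-5844974, plus strand), sls-2.2 (chrII:5543598-5543707, plus strand) and sls-2.3 (chrII:5544164-5544273, minus strand) share their first 22 bases with sls-2.4. The genes sls-2.8 (chrIII:12250465-12250575, plus strand), sls-2.10 (chrIV:9130721-9130829, minus strand) and sls-2.12 (chrIV:5261913-5262022, plus strand) carry other leaders. In that order they show a gene with a region in the authors' final list, a gene with a weaker region only and a gene with no region. The SL1 gene sls-1.2 (chrV:17131064-17131161, minus strand) stands for the 10 full-length SL1 copies. Its annotated start holds 1 extra C before the leader.
sls-2.1: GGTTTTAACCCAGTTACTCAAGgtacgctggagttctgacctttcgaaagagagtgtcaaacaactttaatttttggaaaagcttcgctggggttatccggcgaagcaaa
sls-2.2: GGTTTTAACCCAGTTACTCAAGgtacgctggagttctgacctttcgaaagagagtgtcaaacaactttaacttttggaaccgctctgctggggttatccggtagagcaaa
sls-2.3: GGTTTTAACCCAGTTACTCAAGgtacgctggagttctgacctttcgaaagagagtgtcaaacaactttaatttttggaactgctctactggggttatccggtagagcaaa
sls-2.8: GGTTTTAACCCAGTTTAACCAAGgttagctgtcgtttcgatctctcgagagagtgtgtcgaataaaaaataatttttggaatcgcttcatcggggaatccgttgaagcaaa
sls-2.10: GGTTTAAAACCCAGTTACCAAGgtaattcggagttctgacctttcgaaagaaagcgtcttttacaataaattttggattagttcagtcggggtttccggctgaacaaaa
sls-2.12: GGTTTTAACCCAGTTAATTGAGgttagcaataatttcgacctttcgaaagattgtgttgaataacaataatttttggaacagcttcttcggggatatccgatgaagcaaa
sls-1.2: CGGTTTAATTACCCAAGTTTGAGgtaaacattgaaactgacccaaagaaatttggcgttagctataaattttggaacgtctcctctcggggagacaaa

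All 18 SL2 genes had different sequences over 107 to 114 bases, with leaders of 21 to 23 bases. By the first 22 bases they fell into 11 groups, of which sls-2.1, sls-2.2, sls-2.3 and sls-2.4 formed the largest. Over the whole gene the 6 pairs within that group were 94.1% identical at the median (90.9 to 97.3%), against 75.7% for the other 147 SL2 pairs (66.4 to 99.1%). Within that group the likeness ended with the gene on the downstream side. In the 250 bases downstream the median identity was 51.5% within the group (49.7 to 53.4%) and 50.7% in the other pairs (45.0 to 75.5%). In the 100 bases upstream it was 70.7% (67.0 to 79%) against 53.0% (39.8 to 96%). Some other pairs thus stayed alike past the gene, as sls-2.5 and sls-2.18 did with 75.5% downstream. The 12 SL1 genes held 2 sequences only, 10 copies of 98 bases and a pair of 68-base entries, sls-1.1 and sls-1.5, that lack the leader.

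The authors' final list held 394 entries in ce11 with a median width of 480 bp. It is called the IDR list here, after the irreproducible discovery rate, which compares how regions rank in the replicates. A relaxed list called on pooled replicates had 9660 regions, background included, and the relaxed lists of replicate 1 and replicate 2 held 19062 and 13957. Each region has a summit, the base of highest signal, and a gene was counted when a summit lay within 500 bp of its annotated start on either side. Regions are ranked by the authors' signal value within a list, rank 1 the strongest. That value has a different scale in each list and no read counts were used here, so sequencing depth is unknown. A place in the IDR list does not mean similar ranks in both replicates. At sls-2.1 the entry of rank 342 ranked 79 in replicate 1 and 9445 in replicate 2. Intervals are exact (Clopper-Pearson) 95% intervals and cover counting error only. They take genes as independent, which copies and neighbours that share a region are not. No test was run, since the genes are copies of each other and not replicates.

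TRA-4 regions lay at SL2 genes and at no SL1 gene. In the IDR list 5 of 18 SL2 genes (27.8%, 9.69 to 53.5%) and 0 of 12 SL1 genes had a summit within 500 bp, where all genes had 1.28%. The 5 were sls-2.1, sls-2.2, sls-2.4, sls-2.8 and sls-2.9. A count of 0 of 12 allows a share of up to 26.5%, so the SL1 and SL2 intervals overlap in this list. In the pooled relaxed list 12 of 18 SL2 genes (66.7%, 41.0 to 86.7%) and 0 of 12 SL1 genes had a summit, against 10.6% of all genes, and there the intervals did not overlap. The SL1 genes lie in repeated sequence, with a median of 0% unique words as measured further on. Whether TRA-4 differs between the families therefore cannot be read from these intervals. Replicate 1 gave 13 of 18 SL2 genes (72.2%, 46.5 to 90.3%) against 18.6% of all genes, and replicate 2 gave 12 of 18 (66.7%) against 13.6%. No SL1 gene had a summit in either replicate. Both replicates had a summit at 11 SL2 genes, replicate 1 alone at 2 (sls-2.7 and sls-2.14) and replicate 2 alone at 1 (sls-2.17). The share of all genes with a summit in both replicates was not counted, so the 11 have no background beside them. A summit in both lists is also not always at the same place. At sls-2.16 it lay at 137 bp in replicate 1 and at -60 bp in replicate 2. The remaining 4 SL2 genes, sls-2.6, sls-2.11, sls-2.12 and sls-2.13, had none in any list.

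The relaxed lists hold many regions that the caller itself scored as weak. Keeping only regions with a q-value under 0.05 left 6 of 18 SL2 genes in the pooled list (33.3%, 13.3 to 59.0%), against 1.58% of all genes. In replicate 1 the count was 6 of 18, against 1.41% of all genes, and in replicate 2 it was 5 of 18, against 1.54%. The 6 in the pooled list were the 5 genes of the IDR list and sls-2.3. The strongest regions of the other 6 genes had q-values between 0.128 at sls-2.10 and 0.897 at sls-2.15, so their presence rests on regions that did not pass this threshold.

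**Figure D1:**
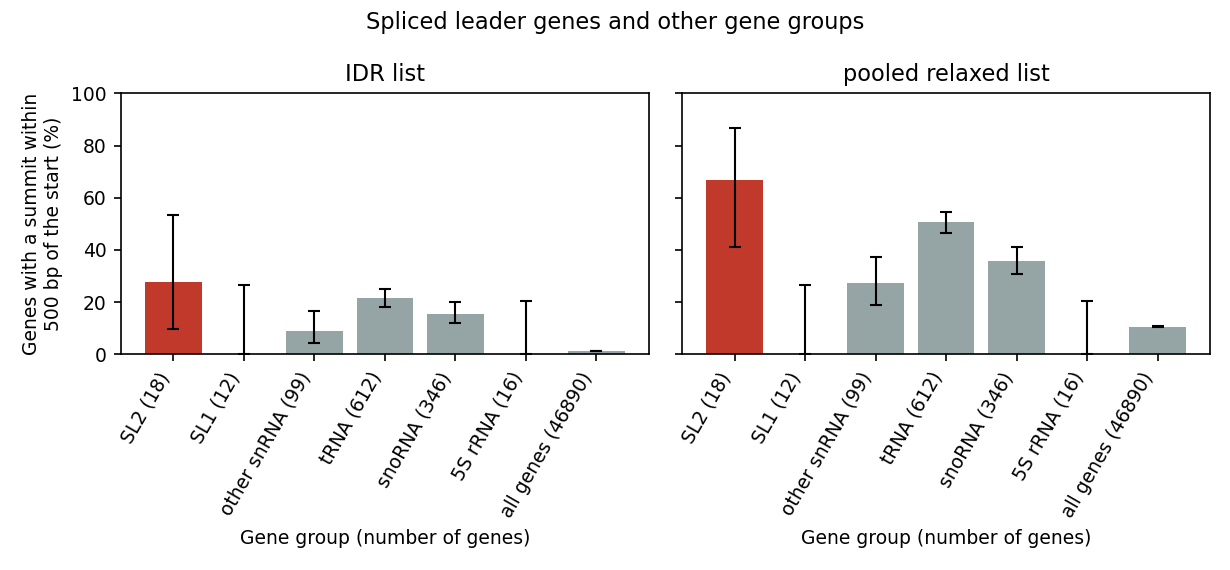
Percent of genes in each group with a TRA-4 summit within 500 bp of the start, in the IDR list (left) and the pooled relaxed list (right). Bars are shares and error bars exact 95% intervals. SL2 genes stand at 27.8% and 66.7%, SL1 genes at 0 in both lists, and all genes at 1.28% and 10.6%.

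Other small RNA genes also had more regions than the annotation as a whole. In the IDR list 27.8% of SL2 genes had a summit, against 9.09% of the 99 other snRNA genes (4.24 to 16.6%), 21.4% of the 612 tRNA genes (18.2 to 24.9%) and 15.6% of the 346 snoRNA genes (11.9 to 19.9%). The interval of the SL2 share, 9.69 to 53.5%, covers the tRNA and snoRNA shares and overlaps the interval of the other snRNA genes, so SL2 genes could not be placed above or below any of these groups in this list. In the pooled relaxed list 66.7% of SL2 genes (41.0 to 86.7%) had a summit, against 27.3% of other snRNA genes (18.8 to 37.1%), whose interval did not overlap, 50.7% of tRNA genes (46.6 to 54.7%) and 35.8% of snoRNA genes (30.8 to 41.1%). With only regions of q under 0.05 kept in that list, the SL2 share was 33.3% (13.3 to 59.0%). Other snRNA genes then had 10.1% (4.95 to 17.8%), tRNA genes 25.7% and snoRNA genes 16.8%. At this threshold the intervals of SL2 and other snRNA genes overlapped. The 16 genes for 5S ribosomal RNA had no summit in any of the 4 lists (upper limit 20.6%), and the SL1 genes stood at 0 of 12. These sets are not independent, since 14 of the 5S genes lie in the array that holds the SL1 genes. At the 5S genes a median of 9.88% of words were unique (0 to 100%), so their count does not show a shared absence of TRA-4.

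The strongest region at an SL gene was that of sls-2.4 (chrI:4172206-4172315, plus strand), the rank 9 region of the IDR list. Its region (chrI:4172233-4172474, signal 370.6) had its summit 144 bp downstream of the start and 35 bp beyond the end of the gene. It ranked 5 in replicate 1, at 144 bp, and 11 in replicate 2, at 107 bp, which is inside the gene and 2 bp before its end. A weaker region of the IDR list followed at 344 bp (rank 156, signal 148.1), with rank 237 in replicate 1 at 344 bp and rank 65 in replicate 2 at 311 bp. Neither replicate placed the stronger region more than 37 bp from the pooled summit. The gene overlaps the noncoding RNA R12E2.18, annotated on the opposite strand with its start at 100 bp in sls-2.4, so the summit was also 44 bp upstream of that start. The nearest protein-coding start was that of egg-5, an egg activation gene, at -617 bp.

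The other SL2 genes with the same leader lie on chromosome II. At sls-2.1 the summit was inside the gene, 100 bp from the start and 9 bp before the end (chrII:5844725-5845204, rank 32, signal 265.0). Replicate 1 ranked it 14, at 103 bp, and replicate 2 ranked it 58, at 73 bp. A further region at 300 bp ranked 342 in the IDR list, but its support was uneven, with rank 79 at 306 bp in replicate 1 and rank 9445 at 298 bp in replicate 2 (q-value 0.889). No other gene start lay within 500 bp of the stronger summit, with piRNA genes left out of the search. The weaker summit was also 376 bp downstream of the start of the protein-coding gene ZK1248.17, on the opposite strand.

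The genes sls-2.2 and sls-2.3 face each other, with starts 675 bp apart and the regions between them. The IDR summit of rank 47 (chrII:5543515-5543994, signal 233.5) lay 157 bp downstream of the start of sls-2.2 and 48 bp beyond its end. It ranked 49 in replicate 1, at 197 bp, and 50 in replicate 2, at 155 bp. From sls-2.3 the same summit was 518 bp away, just outside the window, which is why sls-2.3 is not counted in the IDR list. The pooled relaxed list had a further region between the genes, 319 bp downstream of sls-2.3 and 356 bp downstream of sls-2.2. It ranked 428 with a signal of 98.8, below the lowest IDR signal of 101.6, and a q-value of 0.0269. In replicate 2 a region at 321 bp from sls-2.3 ranked 605 (q-value 0.0753), and in replicate 1 the rank 49 region, at 478 bp, was the only one in its window. The 2 genes therefore share their regions and cannot be counted as separate observations. Each overlaps an opposite-strand noncoding RNA that starts 100 bp inside it, C17C3.23 in sls-2.2 and C17C3.22 in sls-2.3.

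The sequences under 3 IDR summits are given because they show where these summits lay against the end of the gene, just inside it at sls-2.1 and beyond it at sls-2.2 and sls-2.8. Each run covers 50 bases to either side of an IDR summit on the plus strand, with bases of the leader gene in capitals. For sls-2.1 it is the rank 32 region, whose summit run is chrII:5844915-5845015, for sls-2.2 the rank 47 region, chrII:5543705-5543805, and for sls-2.8 the rank 244 region, chrIII:12250646-12250746.
sls-2.1 summit: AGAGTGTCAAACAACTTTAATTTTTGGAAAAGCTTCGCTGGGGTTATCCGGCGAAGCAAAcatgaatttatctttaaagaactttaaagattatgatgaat
sls-2.2 summit: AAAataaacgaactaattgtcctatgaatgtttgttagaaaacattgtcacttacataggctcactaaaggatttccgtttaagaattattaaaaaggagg
sls-2.8 summit: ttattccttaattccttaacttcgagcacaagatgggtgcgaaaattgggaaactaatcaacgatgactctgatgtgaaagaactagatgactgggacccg

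The run at sls-2.1 holds the last 60 bases of the gene, that at sls-2.2 the last 3, and that at sls-2.8 none. The gene sls-2.8, whose leader is unlike that of the group above, had its IDR summit 231 bp downstream of the start and 121 bp beyond the end (chrIII:12250456-12250935, rank 244, signal 121.8). Replicate 1 ranked it 151, at 250 bp. Replicate 2 placed its strongest region at 105 bp, inside the gene (rank 391), and a weaker one at 311 bp (rank 3974, q-value 0.675). The replicates thus placed the strongest region at this gene differently, past its end in replicate 1 and inside it in replicate 2. The pooled summit was also 36 bp into the protein-coding gene Y75B8A.23, which starts 195 bp downstream of sls-2.8 on the same strand, and the opposite-strand noncoding RNA Y75B8A.49 overlaps sls-2.8. The protein-coding gene tim-1, a relative of the fly circadian gene timeless, starts at -301 bp. The region cannot be assigned to sls-2.8 alone.

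The fifth gene of the IDR list, sls-2.9 (chrI:13297877-13297985, plus strand), was the only one with its summit upstream. The summit lay at -136 bp (chrI:13297501-13297980, rank 76, signal 199.97), with rank 64 at -109 bp in replicate 1 and rank 79 at -174 bp in replicate 2. It was 4 bp inside M01E5.t1, a tRNA gene for lysine on the opposite strand, and inside the noncoding RNA M01E5.8. Over all 612 tRNA genes the median IDR summit lay 18 bp downstream of the start. The pooled relaxed list had a further region inside sls-2.9, at 79 bp and rank 3985, and replicate 1 had one at 97 bp. Leaving sls-2.9 out, an alternative chosen after its values were seen, 4 SL2 genes had an IDR summit and their median position was 194 bp.

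**Figure D2:**
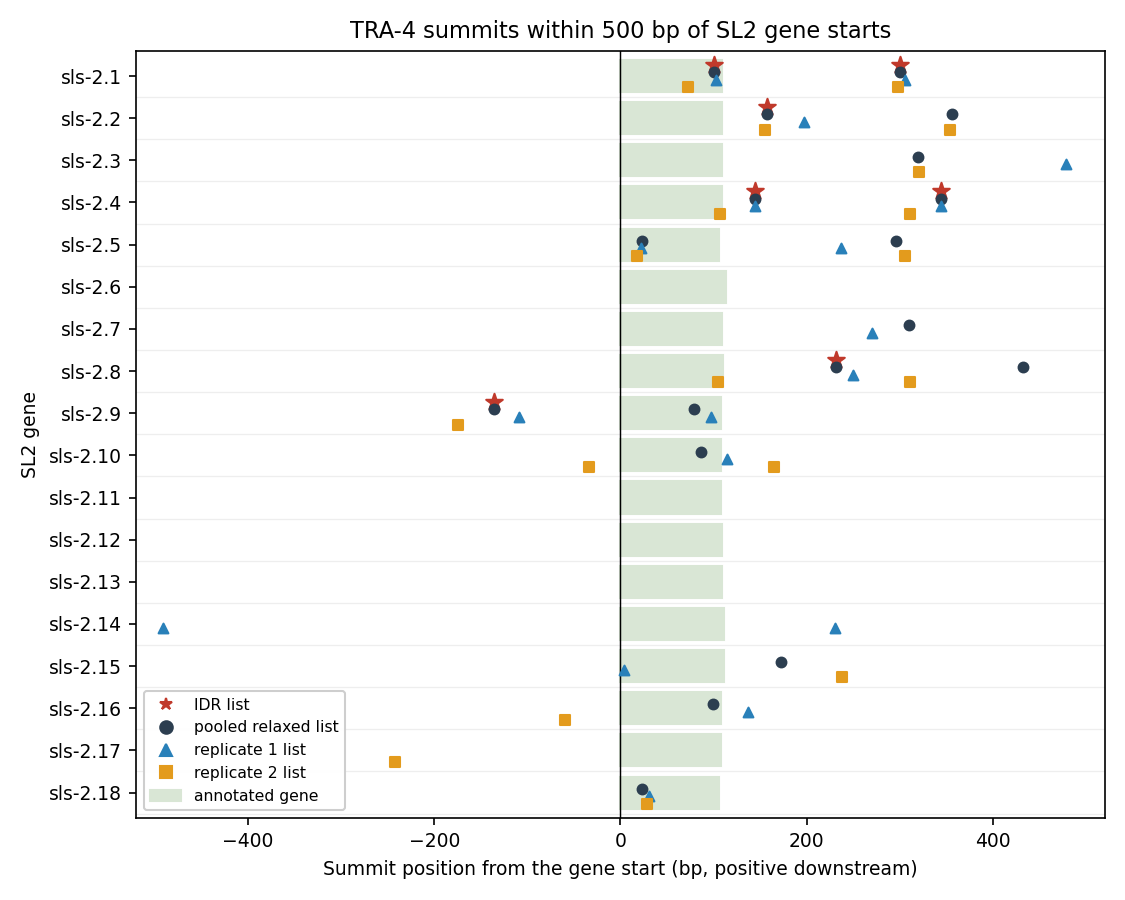
Position of every summit within 500 bp of an SL2 gene start, in bp on the strand of the gene, with 1 row for each of the 18 genes and 1 mark for each list. The shaded block is the annotated gene. At sls-2.1, sls-2.2, sls-2.4 and sls-2.8 the IDR marks lie 100 bp or more downstream of the start, at sls-2.9 the IDR mark lies upstream, and 4 rows have no mark.

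Summits lay mostly downstream. Of the 7 IDR summits at SL2 genes, 6 were downstream of the start, and 5 of these were beyond the end of the gene. Those 5 include the weaker second summits of sls-2.4, at 344 bp, and sls-2.1, at 300 bp. In replicate 2 the strongest summits at sls-2.4, sls-2.1 and sls-2.8 were all inside the gene (107, 73 and 105 bp). Replicate 1 had them at 144, 103 and 250 bp, inside the gene at sls-2.1 alone, so a place beyond the end was not shared by the replicates at sls-2.4 and sls-2.8. The median position was 157 bp (-136 to 344 bp), against 130.5 bp at the other snRNA genes, 18 bp at tRNA genes, -48 bp at snoRNA genes and -1 bp over all genes. In the pooled relaxed list the 18 pairs of an SL2 gene and a summit comprised 1 upstream, 6 inside and 11 beyond the end, with a median of 164.5 bp. In replicate 1 the median was 140.5 bp, and in replicate 2 it was 131 bp. Each list thus had most of its SL2 summits on the downstream side, while all genes together were balanced, with medians between -7 and -1 bp in the 4 lists.

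Second summits need care. At sls-2.1, sls-2.2, sls-2.4 and sls-2.8 the pooled lists gave a second summit 199 to 201 bp after the first. The smallest distance between neighbouring summits anywhere in each of the 4 lists was 199 bp, and 15 of the 388 neighbouring pairs in the IDR list were 190 to 210 bp apart. At these 4 genes the pooled second summits thus lay at or next to the smallest spacing that the lists hold. Elsewhere in the pooled relaxed list the distance was 215 bp at sls-2.9 and 273 bp at sls-2.5, and at sls-2.1 it was 225 bp in replicate 2. Whether they mark separate places of enrichment was not tested.

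The remaining SL2 genes with a pooled relaxed summit were weaker. At sls-2.10, the strongest region ranked 799 at 87 bp, with rank 886 at 114 bp in replicate 1 and rank 1381 at 165 bp in replicate 2. At sls-2.18 it ranked 1354 at 23 bp, with rank 1928 in replicate 1 and rank 4844 in replicate 2, at 31 and 28 bp. The summit at sls-2.18 was also 145 bp downstream of the start of the noncoding RNA B0280.21. At sls-2.5 it ranked 1424 at 296 bp, beside a region at 23 bp and rank 3410. These 3 had a region in both replicates. At sls-2.16 the ranks were 3728 in the pooled list, 5036 in replicate 1 and 2946 in replicate 2, but replicate 2 had its summit at -60 bp. The noncoding RNA B0280.22 starts 171 bp downstream of sls-2.16. At sls-2.7 the pooled rank was 4533 and replicate 1 had rank 1192 at 270 bp, with no region in replicate 2. The start of the protein-coding gene W06D4.3 lay at -145 bp from sls-2.7, within 500 bp of the same summit. At sls-2.15 the ranks were 7104, 8625 and 10510 in the pooled list, replicate 1 and replicate 2. In replicate 1 that region also lay within 500 bp of sls-2.14, whose start is 487 bp from that of sls-2.15 on the other strand.

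The median rank of the SL2 genes with a region was above that of the other regions in each relaxed list, but single genes were not. Their strongest regions had a median rank of 613.5 in the pooled list (12 genes), against 4042 for the 3757 regions near the start of any gene. In replicate 1 the median was 886 (13 genes) against 8495, and in replicate 2 it was 993 (12 genes) against 6178. Below those medians stood sls-2.7 and sls-2.15 in the pooled list, sls-2.14 and sls-2.15 in replicate 1, and sls-2.15 and sls-2.17 in replicate 2. These medians take the strongest region of each SL2 gene and every region of the rest, which favours the SL2 genes. Over the 17 distinct SL2 regions of the pooled list the median was 799, over the 16 of replicate 1 it was 1039, and over the 17 of replicate 2 it was 2609.

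**Figure D3:**
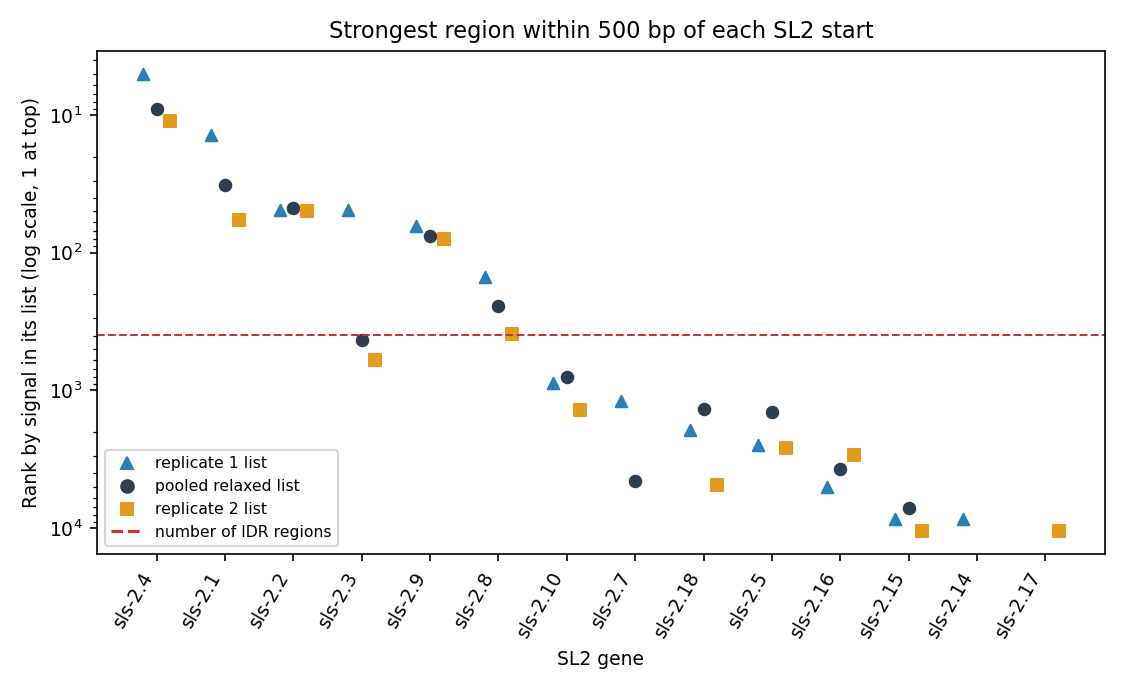
Rank by signal (log scale, rank 1 at the top) of the strongest region within 500 bp of each SL2 start, in replicate 1 (triangles), the pooled relaxed list (circles) and replicate 2 (squares). The dashed line is the 394 regions of the IDR list. The genes sls-2.4, sls-2.1, sls-2.2, sls-2.9 and sls-2.8 lie above the line in all 3 lists, and sls-2.3 does so in replicate 1 only.

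The IDR regions followed the leader sequence only in part. In the group of 4 genes that share a leader, 3 had an IDR summit and all 4 a pooled relaxed summit. In the group of sls-2.5, sls-2.6 and sls-2.7 the counts were 0 and 2 of 3, for sls-2.10 and sls-2.11 they were 0 and 1 of 2, and for sls-2.12 and sls-2.13 they were 0 and 0 of 2. The other 7 genes each had a leader of their own, with an IDR summit at sls-2.8 and sls-2.9. Genes with the same leader therefore differed, as sls-2.10 and sls-2.11 did in the pooled relaxed list. By chromosome, 4 SL2 genes lie on I, 3 on II, 6 on III and 5 on IV. Of the 7 SL2 genes inside a protein-coding gene none had an IDR summit and 4 had a pooled relaxed one, and of the 11 outside such genes 5 had an IDR summit and 8 a pooled relaxed one, beside 1.28% and 10.6% of all genes. A difference between these few genes is not shown.

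Short sequence features were counted on the gene strand. The Sm site in the letters ATTTTTG stood in the first 110 bases of 13 of 18 SL2 genes (72.2%), 0 of 12 SL1 genes, 42.4% of other snRNA genes and 6.31% of all genes. SL1 genes had the shorter ATTTTG in all 12, against 4 of 18 SL2 genes, 3.03% of other snRNA genes and 11.9% of all genes. The letters TGTC, between 60 and 35 bases before the start, occurred in 15 of 18 SL2 genes and 10 of 12 SL1 genes (83.3% each), against 65.7% of other snRNA genes and 6.79% of all genes. ATTTTG and TGTC were picked after the sequences had been looked at. The 3 SL2 genes without TGTC were sls-2.2, sls-2.6 and sls-2.7, and the first of these had the IDR region of rank 47. The 10 SL1 genes with TGTC also held the shorter Sm-like run, and no SL1 gene had a region.

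Upstream stretches of 5 SL2 genes are shown because these letters are shared by genes with and without a TRA-4 region. They cover the 40 bases that end 31 bases before the start, on the strand of the gene, with TGTC in capitals where it occurs. The places are chrII:5844795-5844834 and chrII:5543528-5543567 on the plus strand, chrIII:12250395-12250434 and chrIV:5261843-5261882 on the plus strand, and chrIV:9130860-9130899 on the minus strand.
sls-2.1 upstream: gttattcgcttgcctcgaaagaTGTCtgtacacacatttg
sls-2.2 upstream: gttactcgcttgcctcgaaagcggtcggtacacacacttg
sls-2.8 upstream: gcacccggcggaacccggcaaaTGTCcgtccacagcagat
sls-2.10 upstream: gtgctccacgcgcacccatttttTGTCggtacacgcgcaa
sls-2.12 upstream: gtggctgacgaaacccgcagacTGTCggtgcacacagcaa

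The gene sls-2.12 carries TGTC in the same place as sls-2.1 and sls-2.8 and had no region in any list. In the window these letters therefore did not separate SL2 genes with a region from those without. None of the 7 IDR summits at SL2 genes lay over this upstream stretch.

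The SL1 genes lie in the 5S array of chromosome V, chrV:17115903-17132107, which holds 14 genes for 5S ribosomal RNA and all 12 SL1 genes. Of the SL1 genes, 11 are on the minus strand, opposite to the 5S genes, and neighbouring starts on that strand were 976 bp apart at the median (946 to 2580 bp). At 9 of them a 5S start lay at -173 or -177 bp. The gene sls-1.12 is on the plus strand, with a 5S start at -291 bp. No region of any of the 4 lists overlapped the 16205 bp of the array. The nearest IDR summits were 523609 bp to the left and 1993989 bp to the right. In the relaxed lists the nearest were 13680 bp away in replicate 1, 21295 bp in replicate 2 and 185058 bp in the pooled list.

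How far reads can be placed differed strongly between SL2 and SL1 genes. As a measure, each 36-base word that starts within 250 bp of a gene start was looked up in the whole genome on both strands. At SL2 genes 89.6% of the words occurred once (median, 65.1 to 100%), and at SL1 genes 0% did (median, 0 to 22.95%). Of the 12 SL1 genes 10 had no unique word, sls-1.5 had 4.59% and sls-1.12 had 22.95%. The sources used here do not give the read length or the authors' treatment of reads that fit several places. With words of 24 or 50 bases the SL2 medians were 85.7% and 94.01% and the SL1 median stayed at 0.

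**Figure D4:**
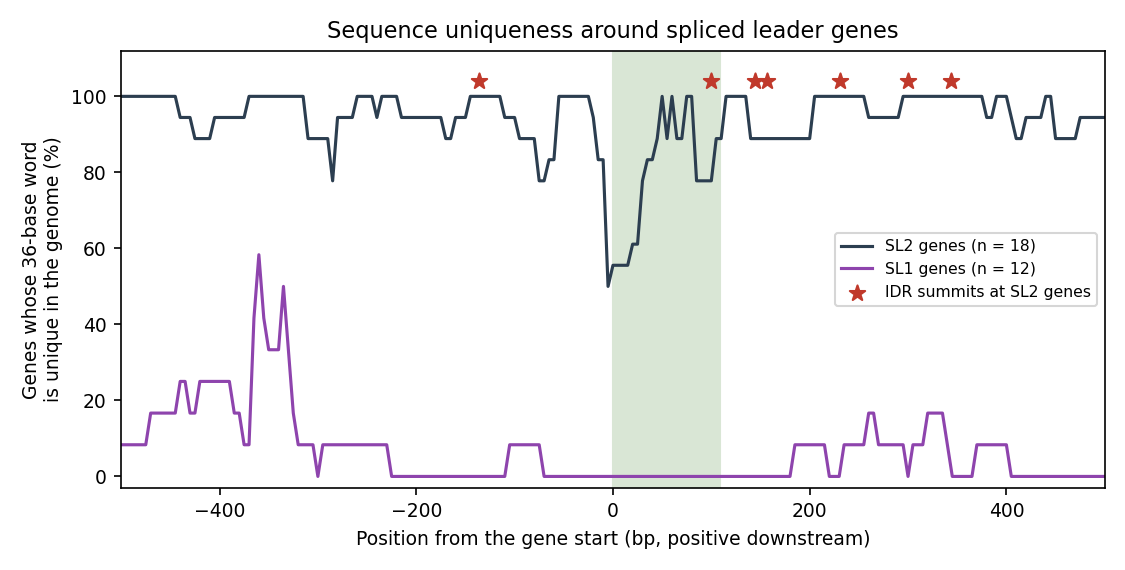
Percent of SL2 genes (dark line, 18 genes) and SL1 genes (purple line, 12 genes) whose 36-base word starting at each position, read downstream on the gene strand, occurs once in the genome. Stars mark the 7 IDR summits at SL2 genes, and the shaded block is a gene of typical length. SL2 uniqueness is lowest, at 50%, for words that start 5 bp before the gene, and SL1 words are mostly repeated throughout.

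Across all genes, regions were scarce where under 50% of the words were unique. Of the 583 genes with at most 10% unique words, which include 11 SL1 genes, 0 had an IDR summit and 0 had a pooled relaxed summit (upper limit 0.631% each). Replicate 1 had a summit at 3 of them and replicate 2 at 0. The 696 genes with 10 to 50% had 0.287% in the IDR list and 2.87% in the pooled relaxed list, and sls-1.12 is among them. From 50 to 90% unique words, where 10 SL2 genes lie, the shares were 4.20% and 13.6% of 3450 genes. The 4832 genes above 90% and short of full uniqueness had 3.02% and 13.2%, and the 37329 fully unique genes had 0.825% and 10.3%, so the shares did not go on rising with uniqueness. Of the 12 SL1 genes, 11 were thus in a class where no gene had a region in either pooled list, and an absence of TRA-4 from them cannot be read from these lists.

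**Figure D5:**
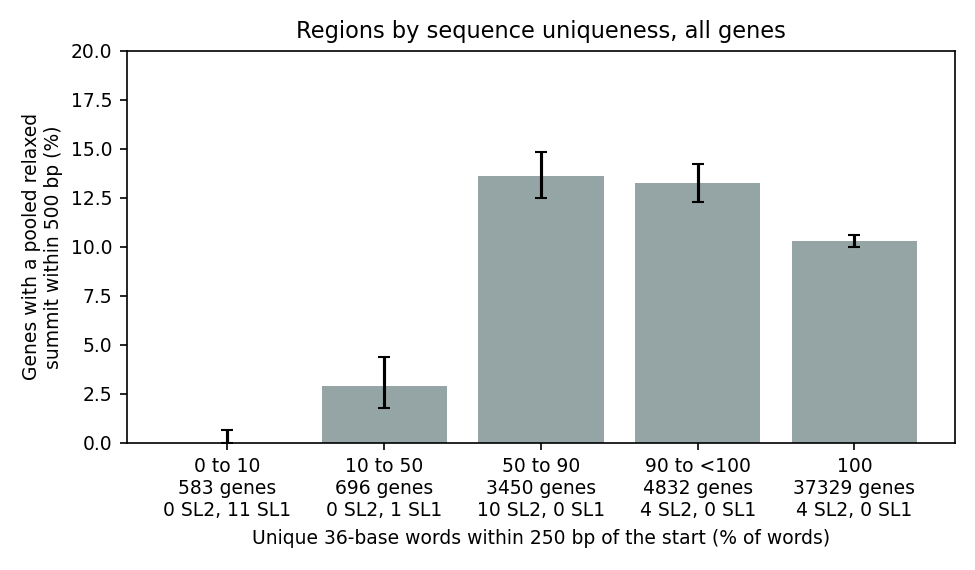
Percent of all genes with a pooled relaxed summit within 500 bp of the start, by the percent of unique 36-base words around the start. Bars are shares and error bars exact 95% intervals. The class of 0 to 10%, with 11 of the 12 SL1 genes, has 0 of 583, and the classes above 50%, with all 18 SL2 genes, have 10.3 to 13.6%.

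For SL2 genes words were least often unique around the start. Words that start 5 bp before the gene were unique in 50% of SL2 genes. Lesser dips to 77.8% stood at -285 bp, at -75 bp and at 85 to 100 bp, and 88.9% of the genes had a unique word at 140 to 200 bp, where the summits at 144 and 157 bp lie. Words that start 120 bp downstream were unique in 100%. The words that cover the summit were all unique at 6 of the 7 IDR summits and 77.8% unique at sls-2.9. The part of word uniqueness in the position of the summits was not tested. The 4 SL2 genes with no region had unique shares of 99.4% at sls-2.6, 93.0% at sls-2.13, 86.6% at sls-2.11 and 65.1% at sls-2.12. The first 3 of these lie within the range of the 14 SL2 genes with a region in some list (82.0 to 100%), and sls-2.12 had the lowest share of all 18.

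A list of genes for proteins that transcribe, carry or modify spliced leader RNAs was also looked up. Of 20 listed genes 19 matched the annotation by symbol, 1 had an IDR summit (5.26%, against 1.28% of all genes) and 4 had a pooled relaxed summit (21.1%, against 10.6% of all genes). It was snr-4, which encodes an Sm core protein, with a summit 377 bp upstream of the start (rank 358, signal 104.8). Replicate 2 ranked it 219 at the same position, and replicate 1 had weak regions at -265 bp (rank 3049, q-value 0.524) and at -484 bp (rank 10452, q-value 0.847). The 4 genes with a pooled relaxed summit were all among the 7 Sm protein genes, and those other than snr-4 (snr-2, snr-5 and snr-6) had ranks of 2666 or weaker. The Sm gene snr-1 had a strong region in replicate 1 only, at -479 bp (rank 129, q-value 0.00209). Among the 7 matched genes for subunits of SNAPc, the complex that binds snRNA and SL promoters, none had a summit in the IDR or the pooled relaxed list. The genes sna-1, sna-2 and sut-1, for proteins of the SL particles, and tgs-1, for the enzyme that adds methyl groups to their cap, had none in any list. The same held for sut-2, which was on the list but encodes a zinc finger protein not known as a part of these particles.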

How the data were processed

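The deposited ce11 narrowPeak files were used, a final IDR list, a pooled relaxed list and a relaxed list for each of 2 replicates. Per the file headers and descriptions, the relaxed lists are input to IDR with background kept, and a control alignment, not analysed here, is among their sources. The sources used here do not give the peak caller, aligner, IDR cutoff or handling of reads that map to several places. The deposited signal values served only to rank regions within a list, the deposited −log10 q-values to mark q under 0.05, and the deposited summit offset (another number, in bp from the region's start) to place summits. Depth is unknown.

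Coordinates are 1-based. Gene starts are from Ensembl release 115 and SL1 names from RefSeq by identical position, since Ensembl gives several SL1 genes 1 symbol. All 30 members are accounted for. Those with an IDR or pooled relaxed summit are named with values, the rest by counts, and neighbours within 500 bp of a summit are named. Genes for piRNAs, another class of small RNA, were left out of the neighbours. A piRNA start lay within 500 bp of the start of 3 SL2 genes. Members, lists and rules were chosen with earlier results of these data known. The TGTC search, the shorter Sm-like run and the setting without sls-2.9 were added after the data had been seen. Word uniqueness was counted with 36-base words over both strands of the whole genome, mitochondrial DNA included. Identities are from global alignments. On made-up lists, summit assignment found every summit planted within 500 bp of a start and left out every one planted further away. Tools were Python 3.11.15, numpy 2.4.6, pandas 2.3.3, scipy 1.17.1 and Biopython 1.88. The ce10 lists were not used.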

Additional observations from a re-analysis of the deposited data

How the results depend on the processing

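Of 39 alternative settings, 1 moved a value beyond the tolerance. The tolerance was 1.5 times for a count, 83.1 bp for the median position and 1 SD over the genes for a unique share. The 83.1 bp is the SD of the 2 single-replicate medians given below, so disagreement between replicates widens it. For the position the tally is therefore a weak check. Keeping pooled relaxed regions with q under 0.05 gave 6 SL2 genes in place of 12, where all genes had 1.58% in place of 10.6%. Windows of 200 and 1000 bp gave 4 and 6 SL2 genes in the IDR list and 9 and 13 in the pooled relaxed list, against 5 and 12 at 500 bp. The stronger 197 IDR regions gave 4. No IDR list exists for a single replicate, so the 394 strongest regions of its relaxed list stood in for one. These gave 6 SL2 genes with replicate 1 alone and 5 with replicate 2 alone. Their median summit positions were 223.5 and 106 bp, respectively, against 157 bp in the IDR list. The whole relaxed lists gave 13 SL2 genes with replicate 1 alone and 12 with replicate 2 alone, against 18.6% and 13.6% of all genes. Shares of all genes were not counted at 200 or 1000 bp, for the stronger 197 regions or for the 394 strongest of a replicate. Those counts therefore have no background beside them. SL1 genes had 0 under every setting, which says little, since 11 of them lie where no gene had a summit in either pooled list. No paired analysis was possible because there is 1 group. With 18 and 12 genes, unknown depth and no analysed control, shares are coarse, and SL1 genes cannot be judged at repeated sequence.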
